A study of Mus musculus with 20 samples.

Results

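The mesenteric white fat of mice fed a high fat diet with nori extract was compared with that of mice fed a control diet, to see what still differed from the control diet when the extract was given. The comparison rests on 2 of the 20 arrays of the series, 1 for each diet, chosen by their titles. Each array held RNA pooled from 7 male C57BL/6J mice, which were fed from an age of 5 weeks and for 13 weeks. The control diet (CD) had 10% of its energy as fat. The other diet (HFD+Ex) had 60% of its energy as fat and 2% by weight of an extract of nori, an edible red alga. Mesenteric fat of mice on the high fat diet alone (HFD) and on that diet with 2% porphyran (HFD+PP), the sulfated polysaccharide of nori, is given beside them. The same 4 diets were also measured in brown fat, liver, ileum and colon.

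Mesenteric fat lies along the vessels of the gut, between loops of intestine, lymph nodes and pancreas. Its fat cells store triglyceride, make fatty acids from glucose when dietary fat is scarce, and release hormones such as leptin and adiponectin. On a diet rich in fat such tissue is known to enlarge, to make less fatty acid of its own, to gain macrophages that take up lipid, and to lay down more collagen.

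Levels below are log2 signal minus the 75th percentile of the array, so that 0 is the brightness of the 75th percentile spot. A gene's level can be compared between arrays, not with the level of another gene. With 1 pool per diet no test was possible, and no error between mice is known. Probes printed 10 times and brighter than the 75th percentile gave an SD of 0.0718 log2 for the HFD+Ex minus CD difference. It covers the variation between spots of an array and nothing else, and dimmer probes were not included in it. The words higher and lower are therefore used for a difference of at least 1 log2, that is 2-fold, in a gene whose spot stood well above its background with CD, with HFD+Ex or with both. Where the gene did not stand above background on the dimmer of the pair, the fold is a bound, taken against the dimmest signal that counts as above background on that array. The CD and HFD arrays were on 1 slide and the HFD+PP and HFD+Ex arrays on another, so slide and diet cannot be told apart in this comparison. The comparisons of HFD with CD and of HFD+PP with CD use the same CD array, and their values are given side by side only.

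Of 21154 named genes on the array, 16503 were measured. With HFD+Ex, 412 genes (2.50%) were higher and 677 (4.10%) were lower than with CD, and the median difference over all measured genes was 0.04 log2. At a stricter limit of 3-fold, 92 genes (0.557%) were higher and 175 (1.06%) lower. The limit of 1 log2 runs through a dense part of the range: 106 genes were higher by 1 to 1.1 log2 and 161 lay at 0.9 to 1, while 123 were lower by 1 to 1.1 and 172 lay just short of it. In the comparison of HFD with CD, 8.86% of 16357 genes were higher and 8.46% lower. With HFD+PP against CD, 3.31% of 16537 genes were higher and 2.82% lower. These shares of all measured genes are the background for the counts of list members given below. The spread of the log2 differences, as the scaled median absolute deviation, was 0.368 for HFD+Ex against CD and 0.571 for HFD against CD.

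**Figure D1:**
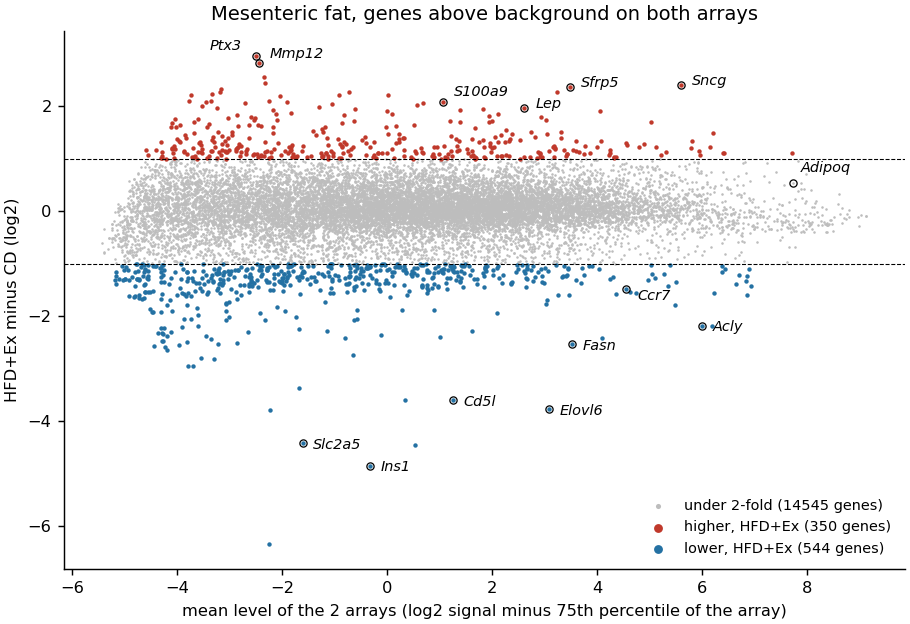
Each point is a gene above background on both mesenteric arrays, with its mean level on the x axis and its HFD+Ex minus CD difference in log2 on the y axis; dashed lines mark 1 log2. The 350 higher and 544 lower genes are coloured, and Elovl6 (−3.77), Slc2a5 (−4.43) and Ins1 (−4.85) lie far below the cloud, while Ptx3 (2.96) and Mmp12 (2.82) are the highest points.

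Markers of fat cells were looked at first. All 27 measured markers of white fat cells were above background on all 4 mesenteric arrays, with a summed signal, in units of the 75th percentile, of 2933 with CD, 3149 with HFD, 3594 with HFD+PP and 3535 with HFD+Ex. The 27 markers were also all measured in brown fat, ileum and colon, and 22 of them in liver. Their detection therefore does not tell mesenteric fat from those tissues. Markers of neighbouring tissues were also present. The 29 markers of exocrine pancreas, which makes digestive enzymes, summed to 2293 with CD, 55.3 with HFD, 3704 with HFD+PP and 1174 with HFD+Ex. The 31 T and NK cell markers summed to 224, 31.3, 103 and 95.4 in the same order. The CD pool was thus the brightest of the 4 for lymphocyte markers, and the HFD pool the dimmest for both lymphocytes and pancreas. The brightest probes weigh most in these sums. In pooled tissue, fewer cells of a type and less RNA per cell cannot be told apart.

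**Figure D2:**
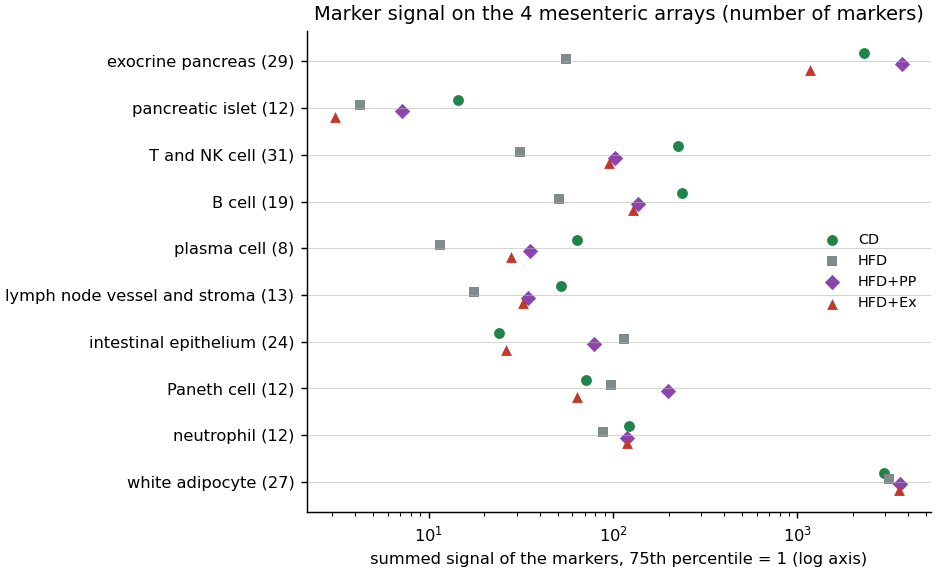
Summed signal of marker genes on the 4 mesenteric arrays, on a log axis in units of the 75th percentile, 1 symbol per diet and with the number of markers in brackets. Exocrine pancreas ran from 55.3 with HFD to 3704 with HFD+PP, and white fat cell markers stayed between 2933 and 3594.

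A group of fatty acid synthesis genes was lower with HFD+Ex, several of them by more than 4-fold. Of 22 measured genes of the list, 9 were lower with HFD+Ex (background 4.10%) and none was higher. The list's median was −0.62 log2, and 21 of the 22 differences were below 0. In the comparison of HFD with CD, 10 of the 22 were lower (background 8.46%) and the median was −0.50. With HFD+PP against CD, 8 were lower (background 2.82%). The promoters of the 3 genes that differed most, Elovl6, Fasn and Acss2, are shown here because these genes head the pathway's differences, and they were chosen after their values were seen. Each is the 250 bases before the RefSeq start site in GRCm38.p6, read 5′ to 3′ on the gene's strand. Elovl6 is at chr3:129532136-129532385 (+ strand), Fasn at chr11:120824548-120824797 (− strand) and Acss2 at chr2:155517793-155518042 (+ strand). Capitals mark matches on either strand to the CCAAT box (CCAAT), the GC box (GGGCGG), the TATA box (TATAAA) and an E-box (CACGTG).
Elovl6: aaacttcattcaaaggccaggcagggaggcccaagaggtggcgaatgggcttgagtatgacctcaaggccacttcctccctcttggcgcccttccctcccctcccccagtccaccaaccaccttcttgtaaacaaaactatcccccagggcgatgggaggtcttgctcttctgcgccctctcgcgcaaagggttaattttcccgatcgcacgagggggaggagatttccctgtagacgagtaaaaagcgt
Fasn: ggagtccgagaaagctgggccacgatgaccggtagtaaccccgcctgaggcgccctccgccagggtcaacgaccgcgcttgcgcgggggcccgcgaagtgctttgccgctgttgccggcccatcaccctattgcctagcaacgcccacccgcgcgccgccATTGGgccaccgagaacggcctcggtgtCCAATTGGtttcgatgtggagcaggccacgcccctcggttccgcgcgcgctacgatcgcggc
Acss2: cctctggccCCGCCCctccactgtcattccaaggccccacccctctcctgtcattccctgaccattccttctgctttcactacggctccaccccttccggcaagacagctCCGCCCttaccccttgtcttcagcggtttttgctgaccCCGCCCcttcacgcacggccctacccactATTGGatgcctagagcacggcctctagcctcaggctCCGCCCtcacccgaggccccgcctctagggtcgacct
The Elovl6 window held none of the 4 motifs. Fasn held CCAAT 3 times, starting 90, 62 and 59 bases before the start, the last 2 overlapping on opposite strands. Acss2 held CCAAT once and GGGCGG 4 times. Of 19 promoters found for the list, 11 (57.9%) held CCAAT, 10 (52.6%) GGGCGG, 1 (5.26%) TATAAA and 3 (15.8%) CACGTG, against 34.5%, 33%, 13.0% and 6.04% of all 27025 promoters in the table. A match is a run of letters and not a measured site.

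Elovl6 lengthens palmitate to stearate and had the largest difference of the pathway. Its level was 4.97 with CD, 1.46 with HFD, 1.22 with HFD+PP and 1.19 with HFD+Ex. The CD array stood alone above 3 high fat arrays that lay close together, and Elovl6 was 13.7-fold lower with HFD+Ex (−3.77 log2). Fatty acid synthase, Fasn, had levels of 4.79 with CD, 1.69 with HFD, 2.09 with HFD+PP and 2.25 with HFD+Ex. Its difference was −2.54 log2, 5.80-fold lower, and HFD differed from CD by −3.10. Acss2, which makes acetyl-CoA from acetate in the cytosol, had levels of 5.31 with CD, 3.32 with HFD, 3.10 with HFD+PP and 2.90 with HFD+Ex and was 5.32-fold lower. Here the HFD+Ex array was the lowest of the 4.

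The enzymes and carriers that supply the substrate were lower as well. Acly, which splits citrate to acetyl-CoA, had levels of 7.09 with CD, 4.88 with HFD, 4.87 with HFD+PP and 4.91 with HFD+Ex, 4.54-fold lower with HFD+Ex. Acaca, the cytosolic acetyl-CoA carboxylase, had levels of 7.28 with CD, 4.35 with HFD, 5.05 with HFD+PP and 5.09 with HFD+Ex and was 4.54-fold lower. Both genes were higher with CD than on any of the 3 high fat arrays, which was also so for the citrate carrier Slc25a1 (−1.58 log2) and for malic enzyme Me1 (−1.56), which makes NADPH. The lipogenic regulator Thrsp differed by −1.33 and the second carboxylase Acacb by −1.13. The desaturase Scd1, at −0.97 log2, stayed just short of the limit.

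Other members of the list lay nearer to the control level. The transcription factors Srebf1 and Mlxipl, which drive this pathway, differed by −0.16 and −0.09 log2. The genes that assemble triglyceride were also near the middle, with Gpam at −0.11, Agpat2 at −0.58 and Dgat2 at 0.20. NADPH-making G6pdx and Pgd differed by −0.24 and −0.20. These 3 triglyceride genes and both NADPH genes stayed under the limit.

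The same diets were compared in the other tissues, on other arrays. In brown fat, 12 of 22 lipogenesis genes were lower (background 2.40%), with a median of −1.05 log2. In liver 5 of 23 were lower (background 1.21%), in ileum 4 of 23 (background 2.21%) and in colon 2 of 23 (background 1.51%), and none was higher in any of these tissues. Fasn differed by −1.45 in brown fat, −1.69 in liver, −1.52 in ileum and −0.83 in colon, each nearer to 0 than in mesenteric fat. Elovl6 differed by −1.49, −1.30, −0.61 and 0.07 in that order. Other genes had their largest difference elsewhere: Scd2 was at −3.11 in brown fat and −0.66 in mesenteric fat, Pnpla3 at −3.71 in liver and −0.31 in mesenteric fat, and Scd1 at −3.07 in ileum. Differences between tissues were not tested.

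**Figure D3:**
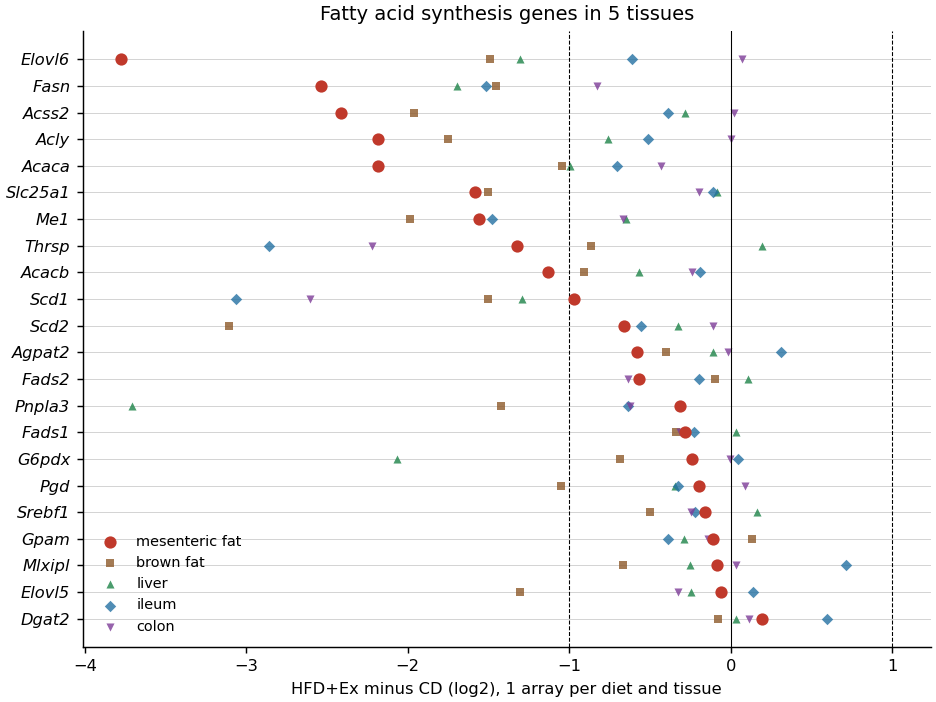
HFD+Ex minus CD differences in log2 (x axis) for the 22 lipogenesis genes measured in mesenteric fat (y axis), 1 symbol per tissue, with dashed lines at 1 log2. Mesenteric fat (large red circles) lies farthest left for Elovl6, Fasn, Acss2, Acly and Acaca, and 12 genes are past the left line in brown fat.

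The sugar transporter Slc2a5 and the sterol gene Soat1 were the single genes past the limit in their lists (background 4.10% lower). In lists of 23 and 16 genes, 1 called member is close to that background. Slc2a5, the fructose transporter GLUT5, had levels of 0.61 with CD, −2.08 with HFD, −1.96 with HFD+PP and −3.82 with HFD+Ex, lowest with HFD+Ex and 21.5-fold lower than with CD. With normexp background correction, an alternative that shrinks differences of dim probes, its difference was −3.41 log2. In ileum it was higher with HFD+Ex by 1.24 log2, and in brown fat it was lower (−2.19). The insulin-regulated transporter Slc2a4 differed by −0.23, and of 23 genes of insulin response and glucose uptake Slc2a5 was the only one past the limit. Soat1, which esterifies cholesterol, had levels of −0.32 with CD, −0.50 with HFD, −2.17 with HFD+PP and −2.06 with HFD+Ex. The CD and HFD arrays were high and the arrays of both supplements low, a split that falls with the slide, and Soat1 was 3.34-fold lower. It was 1 of 16 genes of sterol export, whose median was 0.08. None of 25 cholesterol synthesis genes passed the limit, with a median of −0.38.

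Most genes that define fat cells stayed within 2-fold of the control level. Of 27 white fat cell genes, 2 (Lep and Plin4) were higher (background 2.50%) and none lower, with a median of 0.32. Adipoq, which encodes adiponectin, had levels of 7.47 with CD, 7.95 with HFD, 8.11 with HFD+PP and 8.01 with HFD+Ex, a difference of 0.54 log2. Pparg, the master regulator of fat cells, differed by 0.64, and the droplet proteins Plin1 and Cidec by 0.43 and 0.43. Plin4, another droplet protein, was higher by 1.1. Cfd, which encodes adipsin, and Fabp4 differed by −0.05 and 0.07.

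Of 21 adipokines and genes of fat cell expansion, 6 were higher (background 2.50%) and none lower, with a median of 0.54. With HFD against CD, 11 of the 21 were higher (background 8.86%) and the median was 1.25. Leptin, Lep, which signals fat stores to the brain, had levels of 1.63 with CD, 4.58 with HFD, 3.93 with HFD+PP and 3.60 with HFD+Ex. It was highest with HFD, and 3.92-fold higher with HFD+Ex than with CD. Sfrp5, a secreted inhibitor of Wnt signalling, had levels of 2.31 with CD, 5.62 with HFD, 4.90 with HFD+PP and 4.67 with HFD+Ex, 5.15-fold higher with HFD+Ex. Mest, an imprinted gene known for its expression in expanding fat, had levels of 2.09 with CD, 5.41 with HFD, 4.21 with HFD+PP and 4.37 with HFD+Ex and was 4.86-fold higher. Its 3 probes gave differences between 2.23 and 2.28 log2.

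Each of these genes kept the same order, with CD lowest, HFD highest and the supplements between. Sncg, which encodes gamma-synuclein and is abundant in fat cells, had levels of 4.4 with CD, 7.12 with HFD, 6.88 with HFD+PP and 6.81 with HFD+Ex and was 5.30-fold higher. Npr3, the clearance receptor of natriuretic peptides, was higher by 1.79 and Bmp3, a bone morphogenetic protein, by 1.83. Klf14, a transcription factor of fat cells, had levels of −3.62 with CD, −0.75 with HFD, −1.46 with HFD+PP and −1.06 with HFD+Ex and was 5.89-fold higher, or 1.70 log2 with normexp. In brown fat, Lep was higher by 1.30, Sncg by 1.27, Npr3 by 1.11 and Mest by 1.01.

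Genes of fat breakdown and burning were mostly near the control level. Of 20 lipolysis genes none passed the limit, though their median was 0.39, with Angptl4, an inhibitor of lipoprotein lipase, at 0.92 and G0s2, an inhibitor of triglyceride lipase, at 0.85. None of 22 fatty acid oxidation genes (median 0.28) and none of 25 respiratory chain genes (median 0.04) passed it. Of 23 thermogenic genes 2, Cidea and Tmem26 (−1.16, or −0.39 with normexp), were lower, against 4.10% of all genes. Cidea, a droplet protein typical of brown fat, had levels of 3.93 with CD, 2.88 with HFD, 2.63 with HFD+PP and 2.15 with HFD+Ex, lowest with HFD+Ex and 3.42-fold lower than with CD. Of 26 genes of ceramide and sphingomyelin metabolism, which the study's title names, none passed the limit and the median was 0.20. The largest were Smpd3, a sphingomyelinase, at 0.68 and Degs1, the last step of ceramide synthesis, at 0.60. With HFD against CD those genes differed by 0.91 and 0.85.

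Of the 27 pathway lists, extracellular matrix had the most members past the limit in 1 direction. Of 37 genes, 13 were higher (background 2.50%) and none lower. The median was 0.85, and 36 of the 37 differences were above 0. With HFD against CD, 29 of the 37 were higher (background 8.86%) and the median was 1.51. With HFD+PP against CD, 10 were higher (background 3.31%) and 1 was lower (background 2.82%). Promoters of the 3 of these genes with the largest differences and an entry in the RefSeq table are shown in the same form as above. Timp1 is at chrX:20869916-20870165 (+ strand), Thbs2 at chr17:14694263-14694512 (− strand) and Col8a1 at chr16:57754738-57754987 (− strand).
Timp1: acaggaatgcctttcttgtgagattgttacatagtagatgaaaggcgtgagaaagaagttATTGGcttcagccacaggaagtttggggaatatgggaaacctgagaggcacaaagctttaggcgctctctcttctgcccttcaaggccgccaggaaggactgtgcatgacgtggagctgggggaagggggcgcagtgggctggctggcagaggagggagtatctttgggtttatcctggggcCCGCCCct
Thbs2: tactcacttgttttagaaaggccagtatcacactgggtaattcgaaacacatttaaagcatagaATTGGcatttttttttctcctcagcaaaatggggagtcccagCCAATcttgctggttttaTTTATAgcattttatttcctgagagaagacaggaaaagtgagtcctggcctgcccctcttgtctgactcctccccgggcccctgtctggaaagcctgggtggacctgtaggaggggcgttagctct
Col8a1: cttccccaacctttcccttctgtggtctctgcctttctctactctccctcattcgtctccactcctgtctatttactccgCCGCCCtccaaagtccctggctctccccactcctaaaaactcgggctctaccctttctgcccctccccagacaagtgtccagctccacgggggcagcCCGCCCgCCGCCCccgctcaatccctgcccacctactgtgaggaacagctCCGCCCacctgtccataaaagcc
The Timp1 window held CCAAT and GGGCGG once each, Thbs2 CCAAT 2 times and TATAAA once, and Col8a1 GGGCGG 4 times. Of 24 promoters of the list, 10 (41.7%) held CCAAT, 14 (58.3%) GGGCGG, 4 (16.7%) TATAAA and none CACGTG.

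The matrix genes with the largest differences were Thbs1 and Timp1. Thbs1, a thrombospondin, had levels of 1.04 with CD, 2.72 with HFD, 2.86 with HFD+PP and 2.85 with HFD+Ex, the 3 high fat arrays lying together, and was 3.50-fold higher. Timp1, an inhibitor of matrix proteases, had levels of 0.34 with CD, 2.68 with HFD, 0.79 with HFD+PP and 2.06 with HFD+Ex and was 3.29-fold higher. With HFD+PP, Timp1 lay nearer to CD than to HFD+Ex. Thbs2 was higher by 1.40 and Col8a1, a short-chain collagen, by 1.39, though by 0.72 with normexp.

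Some of the collagens passed the limit. All 3 measured chains of collagen VI, which surrounds fat cells, were higher: Col6a2 by 1.38, Col6a1 by 1.28 and Col6a3 by 1.18. Of the fibrillar collagens, Col5a1 was higher by 1.31 and Col1a1 by 1.02, while Col3a1 at 0.85 and Col1a2 at 0.56 stayed under the limit. Col1a1 had levels of 3.84 with CD, 5.51 with HFD, 4.57 with HFD+PP and 4.87 with HFD+Ex, and its difference was 0.97 with scaling to bright probes. The crosslinking enzymes Lox and Loxl1 were higher by 1.15 (0.93 with normexp) and 1.05, the microfibril gene Fbn1 by 1.06 and the basement membrane collagen Col18a1 by 1.14. Both collagen IV chains fell just short, at 0.97 for Col4a1 and 0.97 for Col4a2. In brown fat Col1a1 differed by 0.58 and in liver by 1.08. Endothelial genes (18 measured, median 0.55) and mesothelial genes (13 measured, median 0.72) lay above the median of all genes too, with none past the limit, and their part in the matrix values was not tested.

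Macrophage genes differed unevenly. Of 24 general macrophage genes, 3 were higher (background 2.50%) and none lower, with a median of 0.29. Adgre1, a surface receptor that marks macrophages, had levels of 1.61 with CD, 3.97 with HFD, 2.40 with HFD+PP and 2.38 with HFD+Ex, and Cd68 3.05 with CD, 5.58 with HFD, 3.48 with HFD+PP and 3.61 with HFD+Ex. In both genes HFD stood high above the other 3 arrays, and the HFD+Ex differences of 0.77 and 0.57 stayed under the limit. Itgax, which encodes CD11c, had levels of 2.19 with CD, 4.36 with HFD, 2.2 with HFD+PP and 2.36 with HFD+Ex, so that the HFD+Ex array was close to CD (0.18). Clec4d, a C-type lectin receptor of myeloid cells, was 4.14-fold higher, Fcgr3, an antibody receptor, higher by 1.04 and the chemokine receptor Ccr2 by 1.0. Fcgr3 and Ccr2 lay at the limit and came to 0.92 and 0.95 with normexp, and to 0.99 and 0.95 with scaling to bright probes.

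Lipid-associated macrophages gather around dying fat cells and are marked by Trem2. Of 21 genes of that list, 7 were higher (background 2.50%) and none lower with HFD+Ex, with a median of 0.47. With HFD against CD, 15 of the 21 were higher (background 8.86%) and the median was 1.93. Mmp12, the macrophage elastase, had levels of −3.85 with CD, 2.0 with HFD, −1.36 with HFD+PP and −1.03 with HFD+Ex. The HFD+Ex array lay between CD and HFD, 7.05-fold above CD, where HFD was 57.6-fold above it. With normexp the HFD+Ex difference was 1.67 log2 in place of 2.82. Trem2 had levels of 0.89 with CD, 5.35 with HFD, 2.31 with HFD+PP and 2.47 with HFD+Ex and was 3.0-fold higher. Gpnmb, a glycoprotein of lipid-laden macrophages, had levels of 0.55 with CD, 5.19 with HFD, 1.94 with HFD+PP and 2.25 with HFD+Ex and was 3.25-fold higher.

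In Spp1, Dcstamp, Ctsk and Atp6v0d2 as well, the CD array was the lowest and HFD the highest. Spp1, which encodes osteopontin, was 4.69-fold higher and Dcstamp, needed for cell fusion, 3.43-fold. Both are dim genes, which came out at 0.97 and 1.18 log2 with normexp. Ctsk, a lysosomal protease, was higher by 1.24 and Atp6v0d2, a subunit of the proton pump, by 1.12 (0.97 with normexp). The lysosomal lipase Lipa, at 0.40, and Lgals3, at 0.94, were under the limit, and Fabp5 lay at −0.90. In brown fat Trem2 was higher by 1.5 and Gpnmb by 1.74, and in colon they were higher by 1.64 and 2.45.

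Genes of resident macrophages went both ways, with 4 of 21 higher (background 2.50%) and 2 lower (background 4.10%). Timd4, a receptor of long-lived resident macrophages, had levels of 0.62 with CD, −3.12 with HFD, −1.03 with HFD+PP and −0.89 with HFD+Ex. It was highest with CD, lowest with HFD, and 2.85-fold lower with HFD+Ex than with CD. Cd209b, a lectin of lymph node and spleen macrophages, was lower (−1.27), and Marco, a scavenger receptor, differed by −0.83. Cd5l, an apoptosis inhibitor that macrophages secrete, was in no list and had levels of 3.06 with CD, −0.51 with HFD, 0.42 with HFD+PP and −0.55 with HFD+Ex, 12.1-fold lower with HFD+Ex. On the other side, Pf4, a platelet-factor chemokine, was higher by 1.17, Retnla, a marker of alternative activation, by 1.1, Cd209g by 1.06 (0.86 with normexp) and F13a1, a clotting factor subunit, by 1.04 (0.91 with the median over its probes). The lymphocyte markers given below were lower on the same array, and their part in the values of Cd209b and Marco was not tested.

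**Figure D4:**
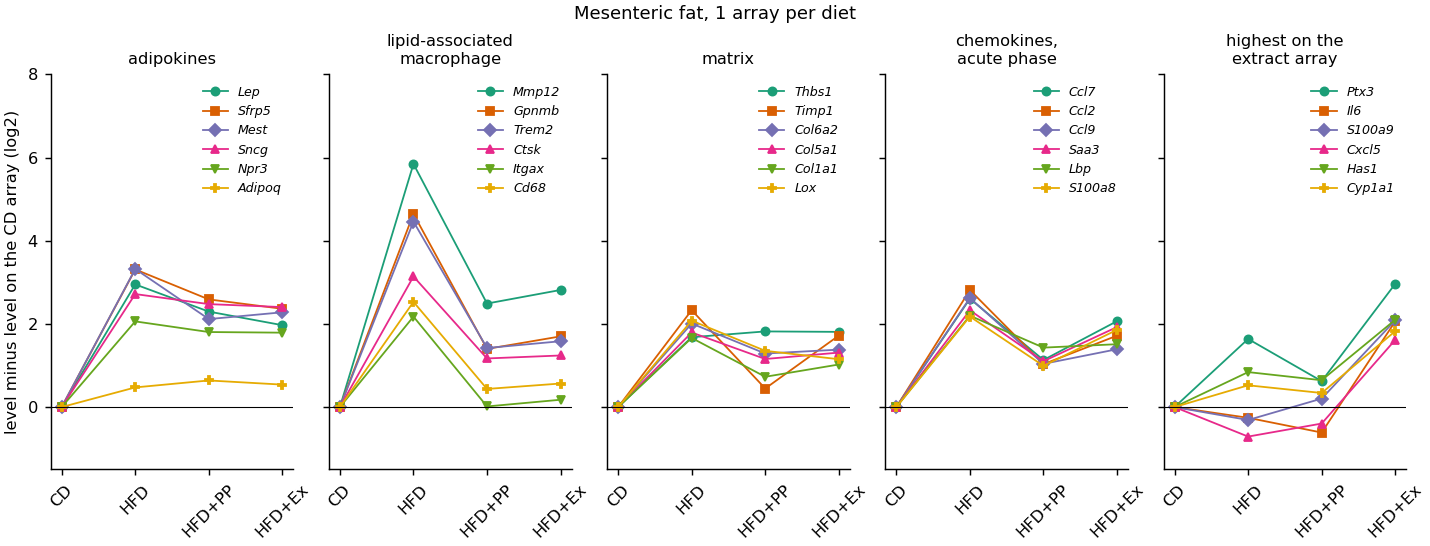
Level of each gene minus its level on the CD array (y axis, log2) on the 4 mesenteric arrays (x axis, 1 pool per diet), in 5 groups of 6 genes; lines join arrays of a gene and are no time course. Mmp12, Gpnmb and Trem2 peak with HFD and lie 1.58 to 2.82 above CD with HFD+Ex, and the genes of the right panel, picked for being highest with HFD+Ex, lie from 1.62 (Cxcl5) to 2.96 (Ptx3) above CD.

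Of 26 chemokines, 7 were higher (background 2.50%), 5 lower (background 4.10%) and 14 under the limit, with a median of 0.21. Ccl2, which draws monocytes, had levels of 1.14 with CD, 3.96 with HFD, 2.18 with HFD+PP and 2.86 with HFD+Ex and was 3.29-fold higher. Ccl7, which acts on the same receptor, was 4.19-fold higher, while Ccl12 and Ccl8 lay at −0.58 and 0.08. Ccl9 and Ccl6, made by macrophages and fat, were higher by 1.39 and 1.26. Cxcl5 and Cxcl1, which draw neutrophils, were higher by 1.62 and 1.22, and Cxcl2 was at least 2.28-fold higher. The 5 lower ones were Ccl5 (−1.42), Cxcl13 (−1.38), Ccl22 (−1.25, or −0.72 with normexp), Ccl19 (−1.23) and Xcl1 (−1.19).

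Some genes were highest on the HFD+Ex array of all 4. The 7 described here were picked after their values were seen, for this pattern, and are no list. Ptx3, a pentraxin that binds microbes and is induced by inflammatory signals, had levels of −3.97 with CD, −2.34 with HFD, −3.35 with HFD+PP and −1.01 with HFD+Ex. It was 7.80-fold higher than with CD, the largest difference upwards among genes measured on both arrays. Il6, the interleukin that drives the acute phase, had levels of −3.73 with CD, −3.99 with HFD, −4.34 with HFD+PP and −1.67 with HFD+Ex, 4.17-fold higher with HFD+Ex, while HFD differed from CD by −0.26. S100a9, a calcium-binding protein of neutrophils and monocytes, had levels of 0.03 with CD, −0.28 with HFD, 0.24 with HFD+PP and 2.12 with HFD+Ex. The CD, HFD and HFD+PP arrays lay within a narrow range and HFD+Ex stood 4.25-fold above CD.

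Other genes of this pattern were dimmer. Cxcl5 had levels of −3.21 with CD, −3.92 with HFD, −3.61 with HFD+PP and −1.60 with HFD+Ex, Has1, a hyaluronan synthase, −4.39 with CD, −3.55 with HFD, −3.75 with HFD+PP and −2.29 with HFD+Ex, and the dioxin-inducible enzyme Cyp1a1 −3.77 with CD, −3.25 with HFD, −3.43 with HFD+PP and −1.95 with HFD+Ex. In each of them the HFD+Ex array was the highest. It was above HFD by 1.26 log2 for Has1 and 1.30 for Cyp1a1. Il12a, a subunit of interleukin 12, was above background with HFD+PP and HFD+Ex only and was at least 8.10-fold higher than with CD. With normexp the differences of dim genes shrank, to 1.77 for Ptx3, 1.14 for Il6, 1.05 for Cyp1a1, 1.01 for Has1, 0.96 for Cxcl5 and 0.88 for Il12a, so that the last 2 no longer passed the limit, while S100a9 stayed at 2.02. Each of these 7 genes rests on 1 probe.

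Not all cytokines followed. Of 21, 2 were higher (Il6 and Il12a) and 2 lower, against 2.50% and 4.10% of all genes, with a median of −0.23. The interleukins Il17a and Il1a were at least 4.08-fold and 3.28-fold lower, differences that shrank to −0.74 and −0.46 log2 with normexp. Tnf had levels of −1.37 with CD, −2.64 with HFD, −2.25 with HFD+PP and −2.18 with HFD+Ex, a difference of −0.81, and Il1b differed by 0.79.

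Of 19 acute phase and complement genes, 3 were higher (background 2.50%) and none lower. Saa3, the serum amyloid A of fat and macrophages, had levels of 0.42 with CD, 2.75 with HFD, 1.52 with HFD+PP and 2.35 with HFD+Ex and was 3.80-fold higher. Lbp, which binds bacterial lipopolysaccharide, was higher by 1.51 and Saa1 by 1.30. Hp, which encodes haptoglobin, was just under the limit at 0.95. Complement C3 differed by 0.07. In ileum all 3 were lower with HFD+Ex, with differences of −1.56 for Saa3, −1.09 for Lbp and −2.25 for Saa1.

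Of 12 neutrophil markers, 3 were higher (background 2.50%): S100a9, S100a8 (1.86) and Retnlg (1.96, or 1.03 with normexp). The 12 markers summed to 123 with CD, 87.8 with HFD, 119 with HFD+PP and 119 with HFD+Ex. The list's median was 0.21, with 7 of 12 differences above 0. Ltf, which encodes lactoferrin, lay at 0.93 and the antimicrobial peptide gene Camp at 0.65, while the chemokine receptor Cxcr2 lay at −0.95 and the granule enzyme Mpo at −0.91. The summed signal of the list with HFD+Ex was thus no higher than with CD. The brightest probes weigh most in such a sum, and it does not reflect the 3 higher markers.

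Lymphocyte genes were lower as a group. Of 31 T and NK cell markers, 21 were lower (background 4.10%) and none higher, and all 31 differences were below 0 with a median of −1.25. Cd3d, a chain of the T cell receptor complex, had levels of 3.63 with CD, 0.20 with HFD, 2.24 with HFD+PP and 2.29 with HFD+Ex and was 2.54-fold lower. Ccr7, which guides T cells to lymph nodes, had levels of 5.30 with CD, 1.31 with HFD, 3.98 with HFD+PP and 3.82 with HFD+Ex and was 2.79-fold lower. The CD array was the highest for both, HFD the lowest, and the supplements lay between. Tcf7, a factor of naive T cells, was lower (−1.51), and Cd3g, another chain of the receptor complex, likewise (−1.45).

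Of 19 B cell genes 5 were lower (background 4.10%), with a median of −0.93 and all 19 differences below 0. Ms4a1, which marks B cells, differed by −0.93. Of 8 plasma cell genes 3 were lower, among them Jchain, the joining chain of secreted antibodies (−1.20). Of 13 genes of lymph node vessels and stroma 2 were lower, Cxcl13 and Ccl19. Glycam1 and Madcam1, the ligands on lymph node venules, differed by −0.84 and −0.86. With HFD against CD those 2 genes differed by −3.47 and −3.52. Of the 13, 4 were above 0, and how much lymph node each pool held was not tested.

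Interferon response and MHC class II genes were mostly below the control level. Of 23 interferon response genes 3 were lower (Oas3, Oasl1 and Usp18), against 4.10% of all genes, with a median of −0.48. Their summed signal was nonetheless 382 with HFD+Ex and 279 with CD, and Ifi27l2a, an interferon-induced gene, lay at 0.71. Of 11 MHC class II genes 2 were lower, H2-Eb2 and H2-Oa. With normexp Oas3 came to −0.72, Usp18 to −0.93 and H2-Oa to −0.95, within the limit. H2-Oa, which B cells express, had levels of 3.08 with CD, −0.41 with HFD, 2.18 with HFD+PP and 2.05 with HFD+Ex, while H2-Aa, found on all antigen-presenting cells, differed by −0.33. None of 27 cell cycle genes passed the limit, but all 27 were below 0, with a median of −0.64. Mki67, a marker of dividing cells, differed by −0.78. The lymphocyte markers were lower on the same array, and their part in the cell cycle values was not tested.

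Part of the pancreas genes were lower. Of 29 exocrine markers 15 were lower (background 4.10%) and all differences were below 0, with a median of −1.02. Reg1, a secreted protein of acinar cells, had levels of 6.38 with CD, −0.51 with HFD, 7.05 with HFD+PP and 4.60 with HFD+Ex. The HFD array stood apart as the lowest, and HFD+PP was the highest. Of 12 islet genes 5 were lower, all of them peptide hormones, while 5 were above 0 and the median was −0.18. Sst, which encodes somatostatin, lay at 0.63. Ins1 had levels of 2.10 with CD, −5.77 with HFD, 0.76 with HFD+PP and −2.75 with HFD+Ex and was 28.8-fold lower. Ins2, the other insulin gene, was 22-fold lower, and Iapp, which encodes amylin, at least 34.3-fold lower, a difference of −2.46 log2 with normexp. The gene 1810009J06Rik had the largest difference of all measured on both arrays (−6.35 log2). This gene, Gm10334 (−3.60) and the acinar regulator Rbpjl (−2.36) were dimmest with HFD and brighter with HFD+PP than with HFD+Ex. The summed exocrine markers had that order too, but were brightest with HFD+PP. In contrast, 1810009J06Rik (0.93) and Gm10334 (2.15) were brighter with CD than with HFD+PP (−2.84 and 0.68). With normexp 1810009J06Rik came to −3.78 and Ins1 to −4.10.

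Genes of gut epithelium were present on all 4 arrays. Of 24 intestinal epithelial genes 8 were lower with HFD+Ex (background 4.10%), with a median of −0.68, while their median was 2.50 with HFD against CD. Tff3, a goblet cell peptide, had levels of −1.28 with CD, 1.45 with HFD, 1.15 with HFD+PP and −3.36 with HFD+Ex, and Fabp1, a fatty acid carrier of enterocytes, 0.88 with CD, 3.14 with HFD, 3.40 with HFD+PP and −0.75 with HFD+Ex. In both the HFD and HFD+PP arrays were high, and CD and HFD+Ex low, and Tff3 came to −1.25 with normexp. The summed signal of the list was 24.0 with CD and 26.2 with HFD+Ex. Of 12 Paneth cell genes 2 were lower and 1, Defa2, was higher (1.40, or 0.58 with normexp), against 4.10% and 2.50% of all genes. Leaving out the genes of lymphoid, pancreatic, intestinal and muscle lists, and all genes at least 2 log2 brighter in another of the 5 tissues, left 335 higher and 409 lower genes of 13126. That rule also removes Elovl6 and Fasn, which are brighter in brown fat.

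**Figure D5:**
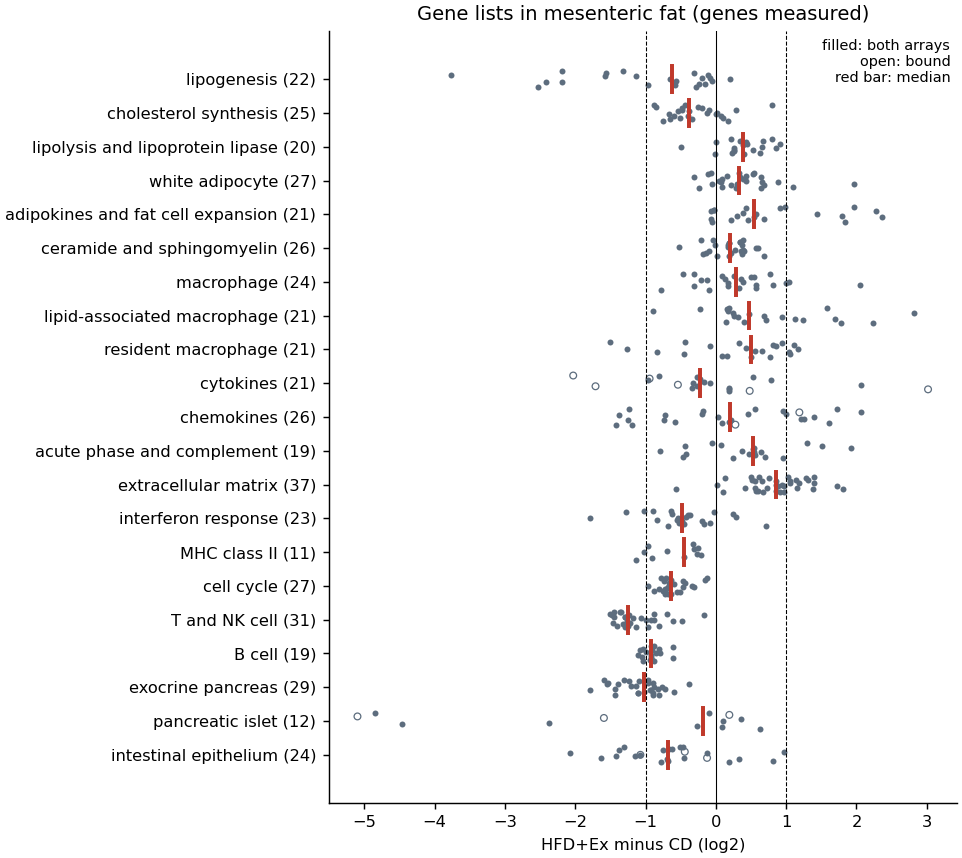
HFD+Ex minus CD differences in log2 (x axis) for the measured genes of 21 lists (y axis, number of genes in brackets); filled points were measured on both arrays, open points are bounds, red bars are medians and dashed lines mark 1 log2. Extracellular matrix has the highest median (0.85), and T and NK cell (−1.25) and exocrine pancreas (−1.02) the lowest.

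A minority of the genes had the same call in another tissue. Of 412 higher genes, 350 were measured in brown fat and 49 (14%) were higher there with HFD+Ex, against a background of 2.70%. Another 3 (0.857%) were lower there, against 2.40%. These 49 were 11.4% of the 428 genes higher in brown fat. Trem2, Gpnmb, Lep, Sncg, Npr3 and Mest were among them. Of the 677 lower genes, 351 were measured in brown fat and 55 (15.7%) were lower there, against 2.40%. These 55 were 14.4% of the 381 lower in brown fat. Of the 351, 19 (5.41%) were higher there, against 2.70%. In ileum 51 of 527 (9.68%) of the lower genes were lower too, against 2.21%, and made up 13.9% of the 368 lower in ileum. Further, 9 of 330 (2.73%) of the higher genes were higher in ileum, against 1.88%, or 2.88% of 312. Another 15 (4.55%) were lower there, against 2.21%. The genes higher in mesenteric fat were higher in liver in 22 of 275 cases (8.0%), against 2.19%, which was 6.55% of the 336 higher in liver. In colon they were higher in 9 of 346 cases (2.60%), against 1.09%, or 4.84% of 186. Another 15 (4.34%) were lower there, against 1.51%. Of the lower genes measured in liver, 13 of 397 (3.27%) were lower there, against 1.21%, and 34 (8.56%) higher, against 2.19%. In colon, 28 of 527 (5.31%) of the lower genes were lower too, against 1.51%, and 19 (3.61%) higher, against 1.09%.

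Several genes with large differences were in no list. Tph2, a tryptophan hydroxylase, had levels of −3.53 with CD, 1.19 with HFD, −1.54 with HFD+PP and −1.09 with HFD+Ex, with HFD highest. With HFD+Ex it was 5.43-fold higher than with CD. Atp1a4, a sodium pump subunit, was higher by 2.28, Arg1, the arginase of liver and of some macrophages, by 2.28, and Bcat1, which breaks down branched-chain amino acids, by 2.09. With normexp Tph2 came to 1.51, Arg1 to 1.15 and Bcat1 to 1.44 log2. Adcy10, a soluble adenylyl cyclase, had levels of −0.34 with CD, −4.91 with HFD, −3.71 with HFD+PP and −4.13 with HFD+Ex and was 13.8-fold lower, a difference of −2.36 log2 with normexp. Il22ra2, a decoy receptor of interleukin 22, had levels of 2.76 with CD, −3.39 with HFD, 0.24 with HFD+PP and 0.49 with HFD+Ex. It was 4.84-fold lower with HFD+Ex. Slc7a11, the cystine transporter, is in the xenobiotic and NRF2 list and was 5.02-fold lower, a difference of −0.84 log2 with normexp. Recql4, a DNA helicase, had levels of 0.41 with CD, −2.0 with HFD, −2.01 with HFD+PP and −2.01 with HFD+Ex, where CD stood alone above 3 equal arrays.

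Some genes were above background on 1 of the 2 arrays only. Olfr1121, an olfactory receptor gene, was at 0.68 with HFD+Ex and not well above background on the other 3 mesenteric arrays, at least 60.8-fold higher. Etnppl, a phospholyase, was at least 19.5-fold higher. With normexp these came to 4.0 and 2.16 log2. In the other direction, Slco1b2, a liver transporter, was at least 20.3-fold lower, and Oosp3, Slc15a5 and Defb20 were above background with CD only, at least 19.2-fold, 19.0-fold and 18.9-fold lower. With normexp the last 4 genes lay between −1.58 and −1.83 log2. Among the 412 and 677 called genes, 62 and 133 were bounds of this kind. They came from 911 genes above background with HFD+Ex only and 153 with CD only. The dimmest signal above background was brighter with CD (−5.25) than with HFD+Ex (−5.91). The bounds of the 2 directions are therefore not alike. Of 163 called genes with several probes above background on both arrays, 7 had a probe that went the other way.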

How the data were processed

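RNA pooled from 7 mice was hybridised per array, 1 for each of 5 tissues and 4 diets, with 1 colour (Cy3). Agilent Feature Extraction 11.5.1.1 (protocol GE1_1105_Oct12, per the file headers) gave a background-subtracted intensity per spot. The authors also deposited a value table, whose intensity values are the scanner signal times 1 factor per array; what that factor was set to is not given in the sources used here, and this table served as an alternative.

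From the deposited intensity values, log2 of the processed signal minus the 75th percentile of each array over non-control spots was computed. Control spots (3671 of 62976) and outlier spots were left out, and spots of 1 probe were averaged. Of 55681 probes, 28026 were matched to 21154 genes through RefSeq accessions and symbols of a GRCm38.p6 table, and 27655 had no symbol. Of the genes, 5681 had several probes, and the probe with the highest mean level was taken. A gene counted as measured where its probe was well above background with CD, with HFD+Ex or with both. On these arrays, 60.5% (CD) and 66.2% (HFD+Ex) of non-control spots were well above background. The dimmest probe signals above background, used for bounds, lay at −5.25 and −5.91 log2. With 1 array per group, no test was made, and the number of arrays limits the precision. The calculations were tested on simulated data, with changes placed only in genes brighter than the 75th percentile of the CD array. Changes in dimmer genes were not simulated.

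The alternatives were normexp background correction with an offset of 50, quantile normalization, scaling to probes above background on all arrays, the authors' values, other filters, the median over probes, a 3-fold limit, and leaving out genes of other tissues. Normexp was planned on the mean spot signal and was run on the median spot signal. Named were the 20 highest and 20 lowest genes, with and without genes of other tissues, the 5 largest bounds each way, the 8 largest differences of each list and a set of key genes; members under the limit were added to describe a list, and Acacb, Col18a1, Cxcl1, Cxcl2, Fbn1, Loxl1 and Xcl1 were added after their values were seen. The members and gene lists were chosen with earlier results of these data known. Python 3.11.15, numpy 2.4.6, pandas 2.3.3, matplotlib 3.10.9, R 4.3.3 and limma 3.58.1 were used. Promoter sequences came from RefSeq. Values of a few genes are not reported here.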

Additional observations from a re-analysis of the deposited data

Results flagged for a closer look

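Genes named for mesenteric fat were listed here where the HFD+Ex array lay at least 2-fold from CD in one direction in mesenteric fat and in the other direction in another tissue. Each difference between tissues compares single arrays and was not tested.

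Of 19 acute phase genes 3 were higher in mesenteric fat, and of 12 neutrophil genes 3, against 2.50% of all measured genes. Some of these were lower in ileum, and S100a8 also in colon. Saa3 differed by 1.93 log2 in mesenteric fat and −1.56 in ileum, Saa1 by 1.30 and −2.25, and Lbp by 1.51 and −1.09. S100a9 differed by 2.09 and −2.10 in ileum. S100a8 differed by 1.86 in mesenteric fat, −1.95 in ileum and −1.44 in colon. Arg1, the arginase, was at 2.28 and −1.76 in colon.

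Lipid and sugar genes also split. Cidea, the droplet protein, was at −1.77 in mesenteric fat and 4.11 in liver. Slc2a5, the fructose transporter, was at −4.43 and 1.24 in ileum. Apoa4, an apolipoprotein of enterocytes, was at −1.43 and 2.07 in ileum, and Sis, the brush border sucrase, at −1.09 and 1.32 in ileum. Both are intestinal genes, and 8 of 24 genes of the intestinal list were lower with HFD+Ex in mesenteric fat; their part in these values was not tested.

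The remaining genes were Try5, a trypsin, at −1.43 and 1.54 in colon, and Crygc, a lens crystallin, at 2.09 and −1.52 in ileum. Gm10639 was at −2.95 in mesenteric fat and 1.92 in liver, and the olfactory receptor gene Olfr1505 at −2.46 and 1.21 in liver. With normexp background correction the mesenteric differences of Crygc (0.69), Apoa4 (−0.73), Sis (−0.57) and Olfr1505 (−0.82) were under 2-fold, while Gm10639 came to −1.34 and Arg1 to 1.15.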

How the results depend on the processing

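The 412 higher and 677 lower genes became 202 and 260 with normexp background correction and 92 and 175 at a 3-fold limit. Without a filter on dim probes, 952 genes were higher, and the share of higher among called genes was 50.2% in place of 37.8%. Leaving out genes of other tissues gave 409 lower genes and a share of 45%. Quantile normalization, scaling to bright probes, the authors' values, the filter on both arrays and the median over probes kept both counts within 1.5 times. Of 166 named genes past 2-fold, 121 were still past it with normexp and 161 to 166 with the scalings and the median over probes. The medians of 39 or 40 of 41 lists kept their sign. The thermogenic median of 0.01 lay between −0.059 and −0.0012 with normexp, each of the 3 scalings, no filter and the median over probes, and the respiratory chain median of 0.04 became −0.0092 with scaling to bright probes. The Paneth cell median of 0.11 became −0.0032 with normexp and −0.017 with the filter on both arrays, and Nme8, at least 2.56 higher, came to −0.13 with the median over its probes. Levels near background limit the dim genes: their differences shrank most with normexp. No paired analysis was possible because each diet has 1 array and the labels give no replicate numbers, and for the same reason no replicate could be left out.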

Other observations

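Probes without a gene symbol were also compared. Of 11870 such probes above background on both mesenteric arrays, 163 (1.37%) were higher and 516 (4.35%) were lower with HFD+Ex by at least 2-fold, against 2.50% and 4.10% of the named genes. Smaller lists not described above had few members past the limit, against a background of 2.50% higher and 4.10% lower. A single called member in a list of this size is close to that background. Of 23 immediate early genes 1, Atf3, a stress-induced transcription factor, was higher (1.18 log2), and of 16 heat shock and unfolded protein genes 1, Hspa1a, which encodes an inducible HSP70 (1.04). Of 15 fat progenitor genes 1 was higher, Zfp423, a factor that commits cells to the fat lineage. Its level was 0.64 with CD, 1.85 with HFD, 1.61 with HFD+PP and 1.78 with HFD+Ex, with CD below 3 similar high fat arrays. Of 30 xenobiotic and NRF2 genes Cyp1a1 was higher and Slc7a11 lower, and the median was 0.37. Of 10 mast cell genes and 14 smooth muscle genes none passed the limit, with medians of 0.42 and 0.28. Of 13 skeletal muscle genes 1, Acta1, which encodes skeletal actin, was higher (1.31). Of 25 lysosome genes 1, Atp6v0d2, was higher.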
